A study of Mus musculus with 12 samples.

Results

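The cholesterol synthesis enzymes Hmgcs1, Fdft1, Sqle, Lss, Cyp51, Msmo1 and Hsd17b7 were described in mouse colon RNA from the high-dose group of a colitis study. They are 7 of the 93 features analysed here from the files of that group and 7 of the 989 analysed from all files of the series. The 7 genes were selected on being listed in the 3 high-dose files, with their values known. That selection is no finding.

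The series holds 12 libraries, 3 in each of 4 groups. High-dose mice (BXD_H) had 2.5% dextran sulfate sodium (DSS), which injures the colon lining, for 5 days and then 5 days of plain water, in 3 rounds, and were given 15.2 g/kg per day of Banxia Xiexin Decoction (BXD), a traditional Chinese remedy brewed from several herbs. Control mice had water, DSS mice the same rounds without the decoction, and low-dose mice (BXD_L) the rounds with 7.60 g/kg per day. The labels state neither strain, sex and age nor whether each library came from its own mouse, so the spread between libraries may be technical. Values are FPKM: sequenced fragments divided by gene length in kilobases and by the library total in units of 1000000.

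Each file holds only part of the transcriptome. The Control and DSS files list 912 features, the BXD_L files 8, and none of these files lists any of the 7 enzymes. The 19 features that the BXD_H and DSS files share include 0 of the 7, and so do the 2 that BXD_H and BXD_L share. No direction of change with DSS or with the decoction can therefore be given, and no test between groups was made. Among 15 colon epithelium markers, 1 was listed in BXD_H, the carbonic anhydrase Car1. None of 14 leukocyte, 12 stromal, vessel and muscle, 8 goblet cell, 7 adipocyte and mesentery or 8 erythrocyte and other tissue markers was listed. The labelled tissue could thus be checked against Car1 alone. The spacing of low FPKM values implied totals of 12.4 to 18.2 times 1000000 fragments for the 3 libraries.

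Cells make cholesterol from acetyl-CoA through mevalonate, farnesyl diphosphate, squalene and lanosterol, and then remove methyl groups from lanosterol and shift its double bonds. The genes of this route are under common control of the transcription factor SREBP2, which is released from the endoplasmic reticulum when membrane sterol falls and which acts with NF-Y and Sp1 at their promoters. In the intestine the route serves the membranes of renewing epithelium beside the uptake of sterol from the diet and from blood.

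Promoter sequence is shown for the 3 enzymes in which a match to the NF-Y box lies upstream of both annotated start sites. Promoters are where the common regulation described above is known to act, but it was not measured at these 3. Bases are from RefSeq on GRCm38.p6, 5′ to 3′ in the direction of the gene. Capitals mark the NF-Y box (CCAAT, which reads ATTGG where it lies on the other strand) and, in Hmgcs1, the sterol regulatory element core TCACNCCAC. Bases inside the GENCODE gene are left out.

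Hmgcs1, chr13:119690171-119690350, plus strand: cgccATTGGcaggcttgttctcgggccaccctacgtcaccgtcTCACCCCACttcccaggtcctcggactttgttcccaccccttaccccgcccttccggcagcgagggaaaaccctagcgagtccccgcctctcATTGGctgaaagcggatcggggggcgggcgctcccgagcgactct
Lss, chr10:76531425-76531587, plus strand: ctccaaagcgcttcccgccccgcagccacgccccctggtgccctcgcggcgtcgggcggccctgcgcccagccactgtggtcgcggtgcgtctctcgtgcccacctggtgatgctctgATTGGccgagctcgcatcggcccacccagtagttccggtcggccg
Hsd17b7, chr1:169969242-169969385, minus strand: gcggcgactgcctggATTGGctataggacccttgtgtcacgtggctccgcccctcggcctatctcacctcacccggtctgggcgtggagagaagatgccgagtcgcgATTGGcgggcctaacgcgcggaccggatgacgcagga

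Of the 7 enzymes, 5 matched the promoter table (Hmgcs1, Lss, Cyp51, Msmo1 and Hsd17b7), which gives 250 bases before and 50 after each RefSeq start. Matches were counted on both strands. All 5 windows held CCAAT, which 37.4% of the 32851 promoters in the table hold, and 30.9% of the 9178 promoters with at least 60% G and C. Hmgcs1 held 4 CCAAT matches, Msmo1 and Hsd17b7 3 each, and Lss and Cyp51 1 each. All 5 also held the GC box GGGCGG bound by Sp1. That box is in 35.7% of all promoters but in 80.3% of those rich in G and C, and the 5 enzymes had 62.8 to 73.6% G and C against a median of 52.4%.

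The sterol regulatory element core TCACNCCAC matched in Hmgcs1 alone, at bases −137 to −129 before the start, and is in 1.24% of all promoters. Its shorter inner part CACNCCA, which that match contains, was found in 2 of the 5, Hmgcs1 and Msmo1, against 18.4% of all promoters. These are matches of letters, and binding was not measured. The RefSeq starts of Cyp51 and Msmo1 lie 49 and 214 bases inside the GENCODE gene, so part or all of their matches fall within annotated transcripts. Those of Hsd17b7 and Lss lie 36 and 17 bases inside, which takes in 1 of the 3 CCAAT matches of Hsd17b7 and 0 of the 1 of Lss.

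**Figure D1:**
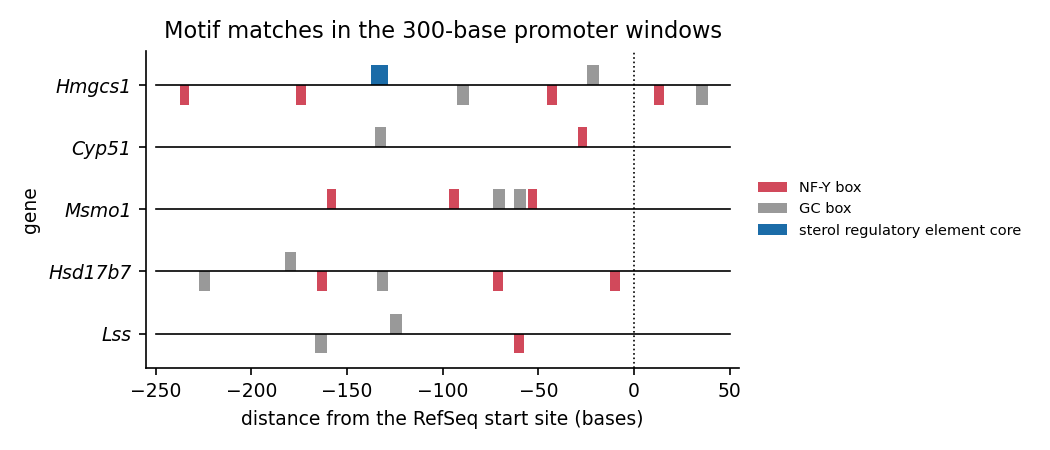
Motif matches in the 300-base promoter windows of the 5 enzymes in the RefSeq table, by distance in bases from the RefSeq start (dotted line). Blocks above a line are on the strand of the gene and blocks below on the other strand. Each of the 5 lines carries at least 1 NF-Y box and 1 GC box, and 1 line, Hmgcs1, carries the sterol regulatory element core.

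Hmgcs1 encodes the cytosolic HMG-CoA synthase, which condenses acetyl-CoA and acetoacetyl-CoA at the entry of the route. It lies on chromosome 13 from 119690379 to 119708260 (mm10). It stood at 127.9, 86.51 and 122.16 FPKM in BXD_H replicates 1, 2 and 3, a mean of 112.2 ± 22.4 FPKM (SD, n = 3). It was the highest of the 7 enzymes in each library and ranked 6th, 8th and 5th of the 93 features analysed. Its 3 values rest on about 10119, 7232 and 6971 fragments, for which counting error alone is 0.99 to 1.2%.

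Squalene formation and closure involve Fdft1, Sqle and Lss. Fdft1, the squalene synthase that commits farnesyl diphosphate to sterols (chromosome 14, 63145150 to 63179578), stood at 42.34, 34.37 and 43.6 FPKM, a mean of 40.1 ± 5.01 FPKM (SD, n = 3). It varied least of the 7, with a coefficient of variation (CV, SD as a percentage of the mean) of 12.5%. Its exons share 774 bases, 18.3% of their length, with Ctsb, a protease gene on the opposite strand. Whether counting used strand is unknown here, and without strand the reads of both genes cannot be told apart over those bases.

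Sqle, the squalene epoxidase and a flux-controlling enzyme of the route (chromosome 15, 59315077 to 59331192), stood at 32.99, 24.17 and 28.07 FPKM, a mean of 28.4 ± 4.42 FPKM (SD, n = 3). Its replicate 3 value lay between those of the other 2 libraries rather than near that of replicate 1. Lss, the lanosterol synthase that closes the ring system (chromosome 10, 76531588 to 76557138), stood at 8.61, 5.49 and 9.03 FPKM, a mean of 7.71 ± 1.93 FPKM (SD, n = 3). It varied most of the 7, with a CV of 25.1%, and its highest library was 1.64 times its lowest.

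Cyp51, Msmo1 and Hsd17b7 act after lanosterol. Cyp51, the lanosterol 14-alpha-demethylase of the cytochrome P450 family (chromosome 5, 4081145 to 4104746), stood at 45.93, 31.12 and 42.8 FPKM, a mean of 39.95 ± 7.81 FPKM (SD, n = 3). Msmo1, the oxidase that starts removal of the methyl groups at carbon C4 (chromosome 8, 64718139 to 64733792), stood at 42.53, 28.64 and 39.32 FPKM, a mean of 36.8 ± 7.27 FPKM (SD, n = 3). Hsd17b7, the 3-ketosteroid reductase of the same demethylation (chromosome 1, 169949535 to 169969241), stood at 9.4, 6.66 and 8.75 FPKM, a mean of 8.27 ± 1.43 FPKM (SD, n = 3). In all 3 genes replicate 1 was highest, replicate 3 next and replicate 2 lowest. Hsd17b7 had the fewest fragments of the 7, about 555 in replicate 3, where counting error alone is 4.25%.

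Exon overlaps with other genes, all on the opposite strand, were also annotated for Hmgcs1 (557 bases, with the antisense Gm48342), Lss (381 bases, with the antisense 4930483K19Rik) and Cyp51 (166 bases, with Akap9). None of these partners is among the listed features. The 7 enzymes lie on 7 different chromosomes, so they share no locus.

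**Figure D2:**
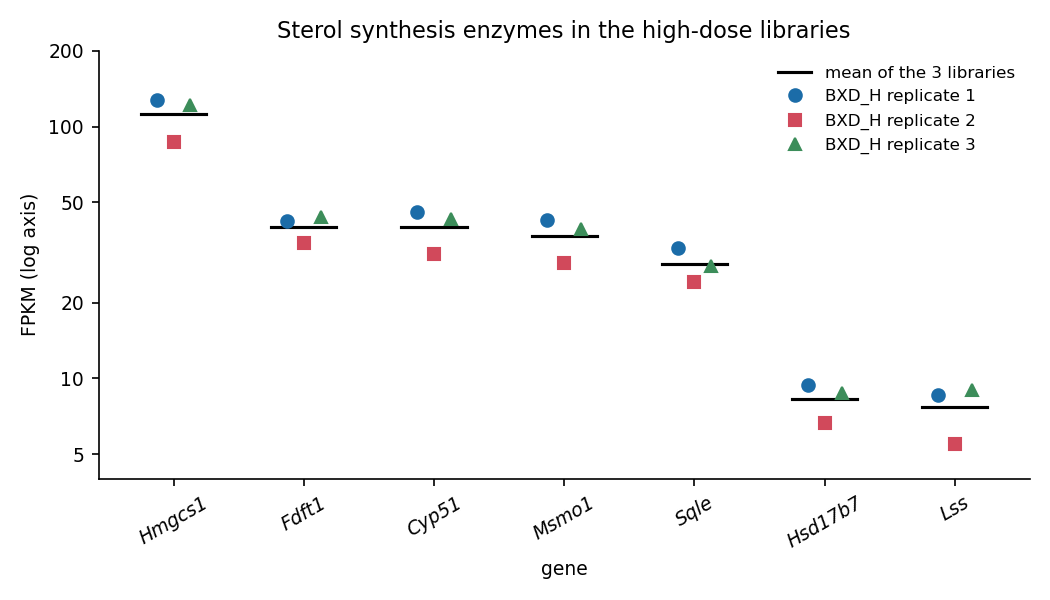
FPKM (log axis) of the 7 enzymes in the 3 BXD_H libraries. Points are libraries and bars their mean. Replicate 2 is the lowest point for every gene shown, and Hmgcs1, at 86.51 to 127.9 FPKM, stands above the other genes.

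Levels formed 3 tiers. They were compared in FPKM, which is per length. Hmgcs1 was 2.8 times Fdft1, the next by mean, and their ranges did not overlap. Fdft1, Cyp51, Msmo1 and Sqle followed at 28.4 to 40.1 FPKM. Within this tier the ranges over libraries of Fdft1 and Cyp51, Cyp51 and Msmo1, and Msmo1 and Sqle overlapped. Compared within each library, Cyp51 was above Msmo1 and Msmo1 above Sqle in all 3, whereas Fdft1 was above Cyp51 in 2 of 3. Hsd17b7 and Lss were lowest, with overlapping ranges and Hsd17b7 above Lss in 2 of 3 libraries, and Sqle was 3.44 times Hsd17b7. Of the 21 pairs of enzymes, 18 kept one order in all 3 libraries and 15 had ranges that did not overlap. The 3 pairs that changed order were Fdft1 with Cyp51, Fdft1 with Msmo1, and Hsd17b7 with Lss.

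This order rests on the gene length used in FPKM. The merged exons of Msmo1 span 6144 bases and its principal transcript 2044, and for Lss the lengths are 10787 and 4667 bases. If all fragments came from the principal transcript, the mean of Msmo1 would be 110.7 FPKM, that of Sqle 57.1, of Lss 17.8, of Hmgcs1 148.8 and of Hsd17b7 9.15. Msmo1 would then rank second, and Lss would lie above Hsd17b7. That calculation assumes that the authors divided by the merged exon length, for which most short genes gave whole fragments. The enzymes are all longer than the genes used for that, so the length was not checked on them. The calculation was chosen after the data were seen.

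All 7 enzymes were lowest in replicate 2, where they stood at 71.2 to 85.7% of their own mean. Of all 93 features analysed 36.6% were strictly lowest in that library, the 7 included. Among the other 86 features 27 were lowest in replicate 2, 46 in replicate 1 and 12 in replicate 3, with 1 tie. Genes that vary together are not separate observations, and the 7 were chosen with these values known, so the count is a description.

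Replicate 2 lay below replicate 1 by a median of −0.56 on the log2 scale over the 7 enzymes, which is 0.678 times its level. The 7 differences ran from −0.65 (Lss) to −0.30 (Fdft1). Replicate 3 lay below replicate 1 by a median of −0.10, with 5 enzymes lower and 2, Fdft1 and Lss, higher. Replicate 3 lay above replicate 2 by a median of 0.46, with all 7 higher. Counting error was 0.99 to 4.25% per value, so the gaps to replicate 2 of 1.27-fold (Fdft1) to 1.64-fold (Lss) between highest and lowest library are larger than sampling of fragments gives.

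The direction between libraries depends on the scaling. The median of the features analysed moved up by 0.36 on the log2 scale from replicate 1 to 2 and by 0.5 from 2 to 3, and each library was centred on it. The enzymes' median difference then became −0.93 for replicate 2 against 1, −0.97 for 3 against 1 and −0.0397 for 3 against 2, the last with 5 enzymes lower and 2 higher. After centring, replicate 3 was therefore lowest for most of the 7. The listed features are a selection, and which scaling is right cannot be told from these files.

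Differences in other features went with the libraries. Car1, the only colon epithelium marker listed, stood at 373.38, 455.48 and 376.09 FPKM. Without centring it was highest in replicate 2, where the enzymes were lowest. This contrast depends on the scaling too, as the median of the features analysed rose more from replicate 1 to 2 than Car1 did. A single gene does not give the share of epithelium in a library. The 13 listed immunoglobulin genes summed to 1293, 1971 and 1367 FPKM. That sum was highest in replicate 2, where it took 0.0847% of fragments, but the genes did not move together: 4 of the 13 were highest in that library and 6 were lowest there. The granulocyte gene Retnlg, named after its values were seen, stood at 9.5, 64.5 and 226.18 FPKM. The part of cell makeup in the enzymes' differences was not tested, and in bulk RNA fewer cells of a type and less RNA per cell cannot be told apart.

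The enzymes moved together more closely than the other features analysed. The log2 difference between replicates 2 and 1 had an SD of 0.11 over the 7 enzymes and of 1.22 over the 49 other features with at least 1 FPKM in every library. The SD of the 49 is widened by genes that moved far at high FPKM, such as Retnlg. The lower and upper quartiles of their differences were −0.33 and 0.63. For replicates 3 and 1 the SDs were 0.1 and 1.53, and for 3 and 2 they were 0.15 and 1.13. A library-wide scaling cancels in these SDs. The other features are a mixture of immunoglobulin, leukocyte and epithelial genes at often lower levels, so their wider spread includes more counting error, and no test was made. The CV of the 7 enzymes ran from 12.5 to 25.1%, and 13 of the 49 other features had a CV below that of Lss, 5 of them below that of Fdft1.

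**Figure D3:**
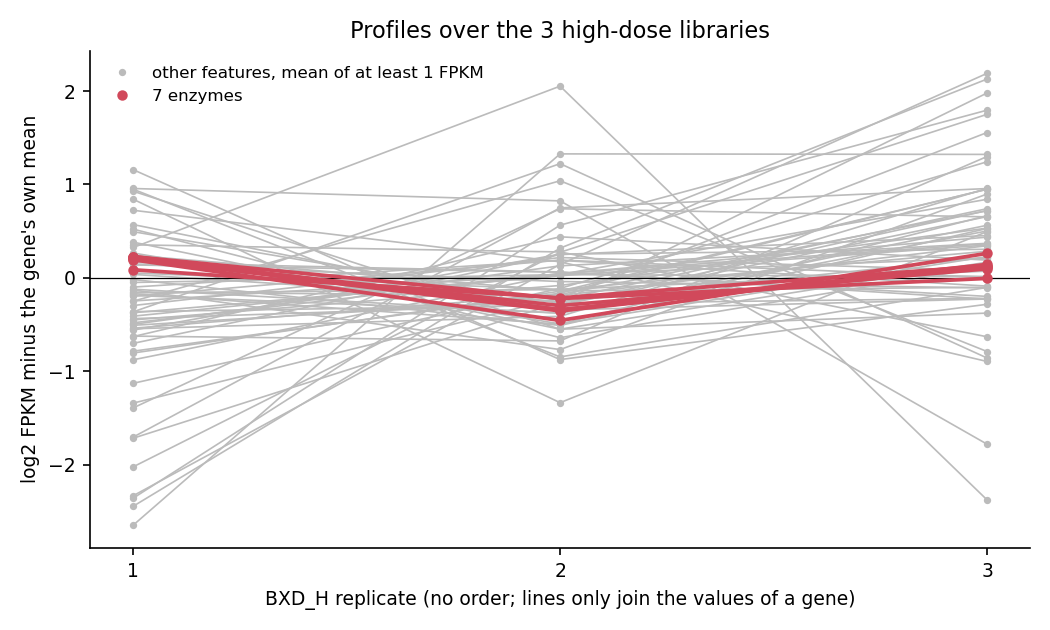
Log2 FPKM of each gene minus its own mean over the 3 BXD_H libraries, for the 7 enzymes (red) and the other features analysed with a mean of at least 1 FPKM (grey). Lines join the values of a gene and the libraries have no order. The red lines run in a narrow band, on average 0.2, −0.32 and 0.12 in replicates 1, 2 and 3.

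Ratios between 2 enzymes in the same library do not depend on the scaling of libraries. Cyp51 to Msmo1 was 1.08, 1.09 and 1.09 in the 3 libraries, a CV of 0.414%. Hmgcs1 to Cyp51 was 2.78, 2.78 and 2.85, and Hmgcs1 to Msmo1 3.01, 3.02 and 3.11. The 3 libraries of each of these pairs agreed within counting error, as their exact binomial 95% intervals shared a common range. For Cyp51 to Msmo1 the interval in replicate 2 was 1.03 to 1.15.

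Intervals shared a common range in 8 of the 21 pairs, among them all 6 pairs of Hmgcs1, Cyp51, Msmo1 and Hsd17b7. Each pair of Hsd17b7 also has wider intervals, since it has few fragments. The other 13 pairs differed between libraries by more than counting error, and each of these 13 holds Fdft1, Sqle or Lss. Sqle to Lss varied most, at 3.83, 4.4 and 3.11, a CV of 17.2%. Fdft1 to Lss was 4.92, 6.26 and 4.83. Among the entry enzyme Hmgcs1 and the 3 enzymes after lanosterol, no pair thus differed by more than counting error, which does not show that proportions were kept. Most pairs with an enzyme of squalene synthesis, epoxidation or closure did differ. Hsd17b7, however, also shared a range with Sqle and with Fdft1. The grouping by step was read from these same ratios. This split depends on interval width as well as on spread. Fdft1 to Hsd17b7, with a CV of 6.95%, shared a range, while Hmgcs1 to Lss, with a CV of 7.62%, did not. Intervals were not computed for pairs with other features. A CV of the ratio no higher than the 17.2% of Sqle to Lss was seen in 30 of the 343 pairs of an enzyme with another feature. Of the 1176 pairs of other features, 84 had such a CV. All 21 pairs of enzymes lie under that limit by definition. The CV of the ratio had a median of 8.48% over the 21 pairs of enzymes, 38.3% over the pairs of an enzyme with another feature and 55.6% over the pairs of other features.

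**Figure D4:**
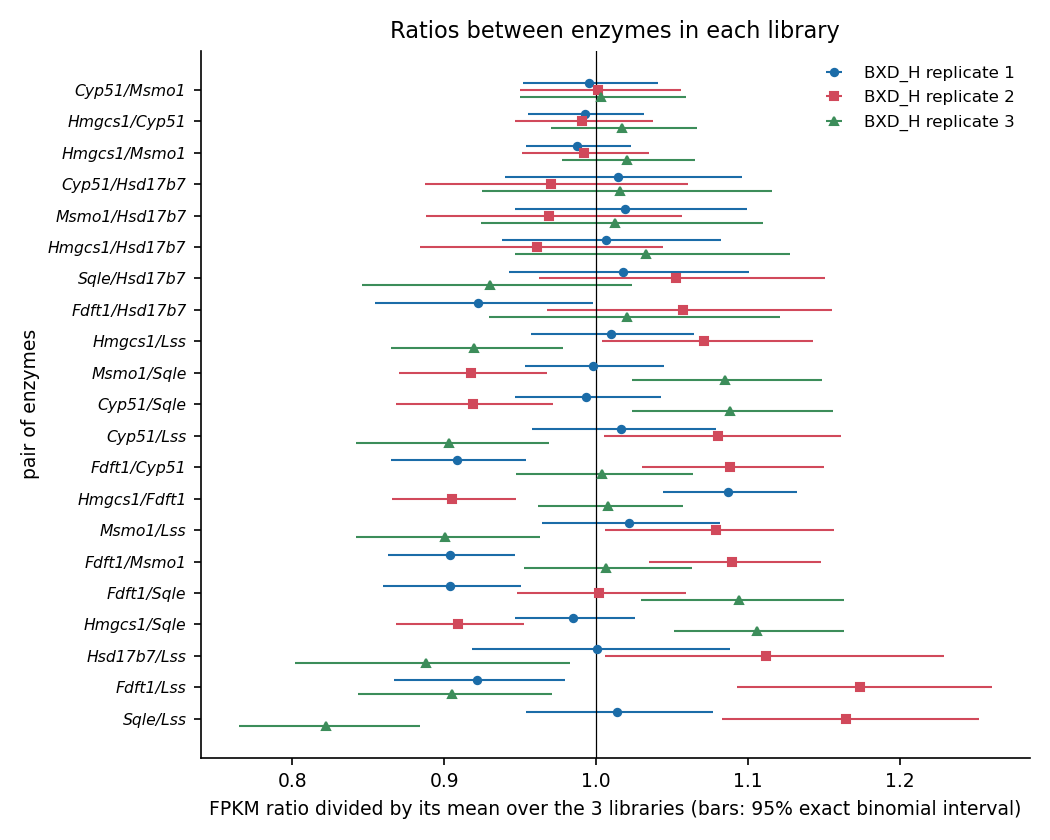
FPKM ratio of each of the 21 pairs of enzymes in the 3 BXD_H libraries, divided by the mean of that ratio, with exact binomial 95% intervals that cover counting error only. Pairs are sorted by CV. The 3 points of the 8 pairs at the top have intervals with a common range, and Sqle to Lss at the bottom spreads most.

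Likeness to the enzymes was measured as the Euclidean distance between a gene's log2 FPKM over the 3 libraries, centred on its own mean, and the mean profile of the 7. Of the 60 other features analysed with a mean of at least 1 FPKM, the carboxylesterase Ces1f lay nearest (distance 0.2), at 9.55, 7.8 and 10.83 FPKM. The class I histocompatibility gene H2-Q10 (0.22) and the carboxylesterase Ces2b (0.25), with means of 1.32 and 1.35 FPKM, followed. Next were the calsequestrin Casq2 (0.29), a calcium store protein of muscle, and the immunoglobulin segment Igkv8-28 (0.3), with means of 2.1 and 18.5 FPKM. Of the 60, 1 lay no farther than Lss (0.2), the farthest of the 7, and the median distance of the 60 was 0.93. The mean profile is made from the 7 themselves, so their own distances are short in part by construction. The 3 libraries give few distinct profiles, so likeness over them is a weak description.

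Counts of listed genes are given here for lists beside cholesterol synthesis, and they do not describe the whole sterol network. The BXD_H files listed 0 of 13 genes of sterol efflux and storage, 0 of 19 of fatty acid and triglyceride synthesis, 0 of 7 of isoprenoid side branches and 0 of 11 of bile acid and oxysterol metabolism. No source used here states the rule that chose the listed features, so a gene outside the files has no known value or direction.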

How the data were processed

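RNA of 12 colon libraries was measured by sequencing, from libraries made with a NEBNext kit, per the labels' protocols. Each deposited file holds FPKM computed by the authors, rounded to 2 decimals, per the file headers. The submitters' processing notes give the build mm10 and the tools fastp, FastQC and bcl2fastq, with no version. The aligner, counter, strand setting and annotation release were not given in the sources used here. Groups follow the titles; the description text conflicts with the title in 2 libraries, neither of them BXD_H.

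The 7 enzymes, the 13 gene lists and the rule for named genes were chosen with earlier results of these data known. Named are the 7, listed genes of the lists and the 5 features nearest in profile. Some items that this rule names are not reported here, and counts, medians and spreads over the features leave them out. Lengths and coordinates are those of GENCODE M21, which matched 92 of the 93 features. Library totals were scanned from 5 to 30 times 1000000 fragments for the one that made FPKM times length whole, within rounding and at most 0.2 fragments, in genes under 2500 bases. At the chosen totals 77.8 to 97.2% of 36 or 37 short genes were whole, and the scan found 20 of 20 simulated totals. The simulation used the same lengths as the scan, so it could not check whether the authors used them. Fragments are FPKM times length times total. Intervals are exact binomial (scipy 1.17.1, Python 3.11.15) and cover counting error only. No test was run, since 1 group has values.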

Additional observations from a re-analysis of the deposited data

How the results depend on the processing

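With 3 libraries of 1 group, no group effect could be tested, and no paired analysis was possible because no other group lists the enzymes. The enzymes' median level was 33.98 to 40.9 FPKM leaving out 1 library at a time, against 36.8 with all 3. It became 45.8 FPKM with the length of the principal transcript, as those transcripts are shorter, and 5 of the 7 single means then moved by more than their SD. Centring on the listed features moved the shift of replicate 2 against 1 to −0.93 and of replicate 3 against 1 to −0.97, and turned that of 3 against 2 to −0.0397, since the median of the listed features differs between libraries. Of 24 recomputed values behind the main results, 20 stayed within a set limit of the main value. The limit was the SD between libraries for levels and the SD over the 7 enzymes for shifts. For the order, the spreads, the fragments and the motif counts it was 1.5 times. Some of these checks could not leave the limit, so their count is no measure of robustness. Scaling a whole library cannot change the order of enzymes within it. Leaving out a library can only keep or raise the 18 of 21 pairs that hold 1 order. It also moves a mean over 3 values by less than their SD. A pseudocount of 1 changed no direction, and the longest transcript, tried for the fragments behind each value, kept their median within 1.5 times. With its length in FPKM, Msmo1 (76.2) would stand above Fdft1 (45.8) and Cyp51 (44.9), and Lss (11.9) above Hsd17b7 (9.15). FPKM of Lss and Hsd17b7 rest on 555 to 1600 fragments.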

Other observations

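Dbp, a clock output transcription factor outside the enzyme group, was lowest in the same library as the enzymes in FPKM without centring. It shared this with others, being 1 of 27 among the 86 other features. Its distance to the enzymes' mean profile was 0.46, beyond the 5 nearest features. Dbp stood at 7.72, 3.45 and 5.84 FPKM in BXD_H replicates 1, 2 and 3. It is 1 of the 2 features listed for both doses, at 3.94, 4.9 and 5.96 FPKM in BXD_L. The labels do not state the time of day of tissue collection, and a relation of Dbp with the enzymes was not tested. Dbp was singled out after its values were seen.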
